A study of Branchiostoma belcheri with 3 samples.

Results

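The amphioxus miRNAs numbered miR-2054 to miR-2079 were examined in 3 organs of Branchiostoma belcheri, a small filter-feeding marine chordate without backbone. Members were the array probes whose name begins with bbe (B. belcheri) or bfl (the related species B. floridae) and whose number lies in that range. The rule found 47 of the 1686 miRNA probes, 21 with B. belcheri and 26 with B. floridae sequences, and they covered 20 of the 26 numbers. It used names and no measured value. No probe of the other chordate, hemichordate and echinoderm species on the array carried these numbers. Whether related sequences occur in other animals was not examined beyond this array.

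The series compared hepatic caecum, intestine and gill. The hepatic caecum is a pouch of the gut that is often set beside the vertebrate liver, the intestine is the digestive tube behind it, and the gill is the slit pharynx used in filter feeding. All groups were adults of wild origin fed on algae in seawater, and the labels name no treatment, genotype, sex or age beyond adult. RNA of 5 adults was mixed for each organ and hybridised to 1 array with Cy3, so every value comes from pooled animals, and organ and array cannot be told apart. In whole organs, fewer cells that hold a miRNA and less of it per cell cannot be told apart either. With 1 sample per organ no test between organs was possible and no p-value is given.

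A miRNA is cut from an RNA hairpin as a short duplex, and the strand kept in the silencing complex directs it to messenger RNAs. The products of the hairpin's arms are called 5p and 3p. Target recognition rests mainly on the seed, bases 2 to 8, so miRNAs with the same seed are grouped as families. Many animal miRNA families are shared across phyla, whereas other miRNAs have a name of their own in a single lineage. A separate number does not exclude a seed shared with another family.

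The sequences of the members on which the results turn are shown first, grouped by seed, with the seed in capitals. They are the probe targets given in the deposited scanner files, 5′ to 3′. The first set has the seed AUUGCAC, which 44 probes outside the group also had, 33 of them of miR-92, miR-25, miR-363 and miR-367.
bbe-miR-2059-5p: uAUUGCACuguuuugcuuuga
bbe-miR-2076-5p: aAUUGCACuagagugauuuguu
bfl-miR-2059-3p: uAUUGCACuuuuuugcuuuga
bfl-miR-2063: uAUUGCACuaauuugcuuuuga

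The second set has the seed AGCAGCA, shared with 18 probes outside the group, 13 of them of miR-15 and miR-16, which restrain cell division and survival genes in mammals.
bbe-miR-2064-5p: aAGCAGCAcugugcaacugugu
bfl-miR-2066: aAGCAGCAgugugcagugguga
bfl-miR-2067: aAGCAGCAguaugcaauggug

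The miRNA bfl-miR-2061 has the seed UGCAUAG, shared with 11 probes outside the group, 10 of which belong to miR-153, a miRNA of the nervous system in vertebrates. The other members detected on every array had seeds of their own, and are shown because their tissue differences are described below.
bfl-miR-2061: uUGCAUAGguacauuggucagu
bfl-miR-2062-5p: uGCAACAAuauuucaucagugg
bfl-miR-2065: uGGCAGAGauggcacguugau
bfl-miR-2070-5p: uUUCCACAgccucuacacaugu
bfl-miR-2072-5p: uGCAACAUcacagugaccacau
bfl-miR-2076-3p: cAAAUCACuucagugcaguucu

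The last set shows miR-2071, whose probes were bright in gill and dim elsewhere, and the members that were low in intestine against gill.
bbe-miR-2071-5p: aUUGUUACaccgcgccgcaa
bfl-miR-2071-3p: aUUGUUACaccgcgccgcaaaag
bbe-miR-2071-3p: aUGCGGUGcggugguagcaaccg
bfl-miR-2071-5p: aUGCGGUGcggugguagcaaccgu
bbe-miR-2063-3p: aAAAAGCAaaaaguugcaauau
bfl-miR-2056: uUUCACUGuagaucuaccugcg

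Spot brightness was read as density, a linear intensity in scanner units, in 2 spots per probe. Detection required a mean density more than 3 SDs above the mean of the 304 blank spots of the same array. The blank spots averaged 185 ± 144 in hepatic caecum, 115 ± 34.9 in intestine and 107 ± 10.6 in gill (SD of the spots), which put the thresholds at 618, 220 and 139. The hepatic caecum array was read with its grid turned by 180 degrees. In that placement its control spots correlated with those of the other arrays at r = 0.977 on the log2 scale, against 0.261 under the deposited names. Under the deposited names 0 members passed the threshold on that array, so every hepatic caecum value below rests on the turned grid. Repeat spots of a probe, compared across the 47 members as log2 density, correlated at r = 0.966 in hepatic caecum, 0.995 in intestine and 0.997 in gill. No list of miRNAs defines these amphioxus organs. Of miRNAs known from vertebrate tissues, the muscle list (miR-1, miR-133, miR-206) had 0, 4 and 15 of 35 probes detected in hepatic caecum, intestine and gill, and the neural list (miR-124, miR-9) 1, 1 and 8 of 22. None of the 8 gut epithelium probes (miR-192, miR-194) or the 2 liver probes (miR-122) was detected on any array.

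Detection was compared between the organs. Most members were seen in gill, and the sets were nested by the thresholds above, which rise from gill to intestine to hepatic caecum. Hepatic caecum showed 10 members (21.3%), intestine 16 (34.0%) and gill 36 (76.6%). Over all 1686 miRNA probes the shares detected were 7.18%, 11.9% and 27.0%. Among the 88 amphioxus probes of miR-48xx, another block of high numbers, they were 13.6%, 27.3% and 42.0%, and among the 125 remaining amphioxus probes 23.2%, 33.6% and 70.4%. By the thresholds above, the members' shares lay close to those of the remaining amphioxus probes in each organ and above those of miR-48xx. The ordering depended on the threshold. With thresholds based on blank medians, hepatic caecum showed 19 of 47 members, 68 of 125 remaining probes and 34 of 88 miR-48xx probes. Intestine then showed 20, 63 and 34, and gill 38, 88 and 41. The members' share then lay near that of miR-48xx and below that of the remaining probes in hepatic caecum. It lay between theirs in intestine and above both in gill. The amphioxus probes carry sequences of the animals studied or of a close relative, so the gap to the array as a whole is one between species as well.

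All 10 members detected in hepatic caecum were also detected in intestine and gill, 6 more were detected in intestine and gill, and 20 in gill alone. No member was detected in hepatic caecum or intestine without gill, as 0.237% of all probes were in each case. The gill threshold was the lowest of the arrays, and 13 of the 20 gill-only members had gill densities of 140 to 210, at or below the intestine threshold, where an equal density would have gone undetected elsewhere. The other 7 were bbe-miR-2057-3p, bbe-miR-2060c-3p, bfl-miR-2069 and the 4 probes of miR-2071. Of these, 6 also had gill densities above the hepatic caecum threshold, all but bbe-miR-2060c-3p. With thresholds based on blank medians, bbe-miR-2057-3p, bbe-miR-2060c-3p and bfl-miR-2069 were detected in hepatic caecum and intestine too, so their gill-only call ended. After scaling, bbe-miR-2057-3p was highest in hepatic caecum, bbe-miR-2060c-3p was lowest in gill and bfl-miR-2069 was highest in gill. The 13 dim ones were bbe-miR-2057-5p, bbe-miR-2058-3p, bbe-miR-2058-5p, bbe-miR-2060a-3p, bbe-miR-2060b-3p, bbe-miR-2061-3p, bbe-miR-2066-3p, bbe-miR-2067-5p, bbe-miR-2070-3p, bfl-miR-2057, bfl-miR-2058-5p, bfl-miR-2060 and bfl-miR-2062-3p.

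The 11 members detected on no array were bbe-miR-2059-3p, bbe-miR-2064-3p, bbe-miR-2068-3p, bbe-miR-2072-3p, bfl-miR-2059-3p, bfl-miR-2059-5p, bfl-miR-2068-3p, bfl-miR-2070-3p, bfl-miR-2072-3p, bfl-miR-2073 and bfl-miR-2075. Their densities were 147 to 173 in hepatic caecum, 72.0 to 115 in intestine and 105 to 139 in gill. The numbers 2073 and 2075, with 1 probe each, were the only ones of the 20 with no detected probe. Near the thresholds, bfl-miR-2062-5p at 641 was the dimmest member called in hepatic caecum and bbe-miR-2059-5p at 441 the brightest not called. In gill, bfl-miR-2062-3p at 140 was called and bfl-miR-2059-3p at 139 was not.

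**Figure D1:**
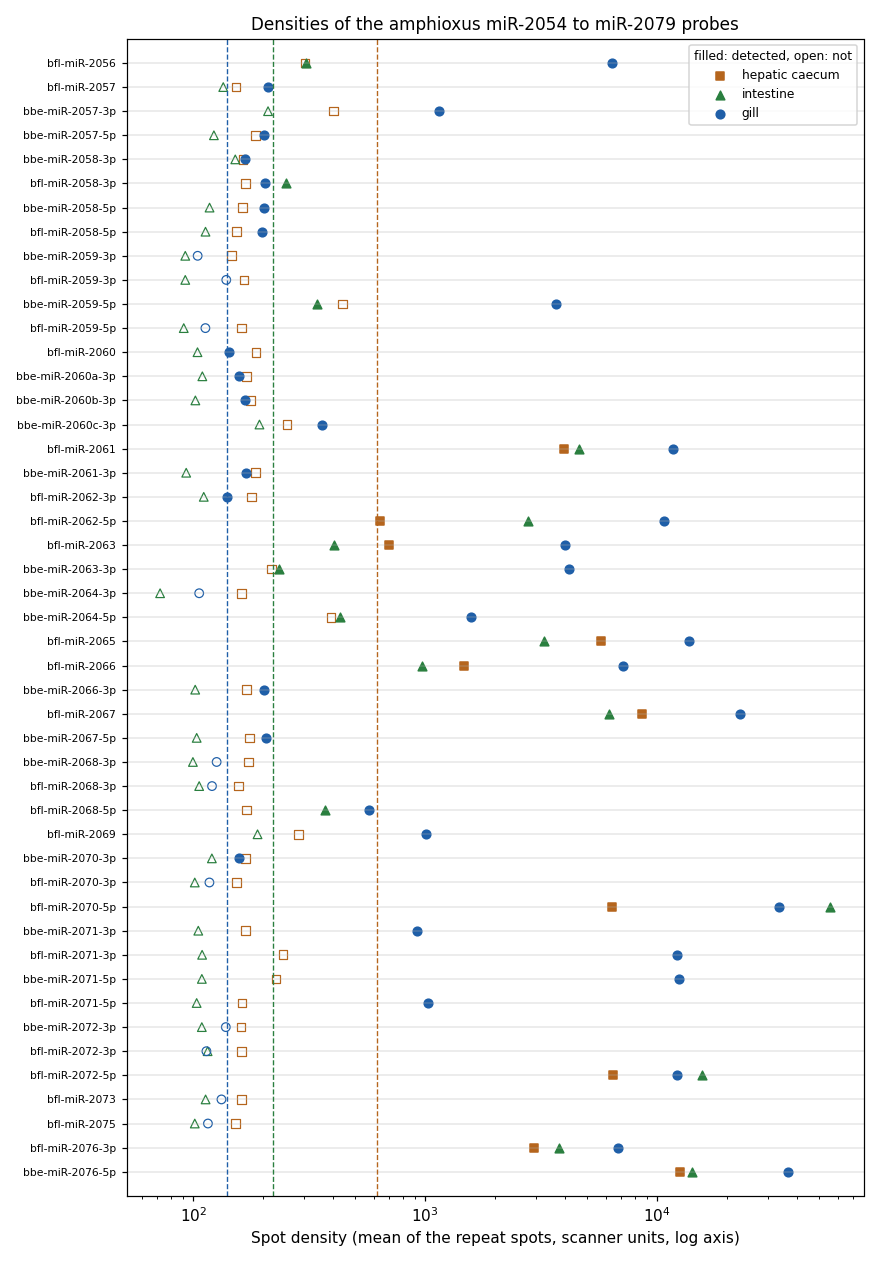
Density of each of the 47 member probes (mean of 2 spots, scanner units, log axis) on the hepatic caecum (squares), intestine (triangles) and gill (circles) arrays; filled symbols were detected and dashed lines are the thresholds of 618, 220 and 139 in the same colours. The 10 members detected in hepatic caecum were detected in the other organs too, and 20 members were filled in gill only.

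Members detected in all 3 organs were bbe-miR-2076-5p, bfl-miR-2061, bfl-miR-2062-5p, bfl-miR-2063, bfl-miR-2065, bfl-miR-2066, bfl-miR-2067, bfl-miR-2070-5p, bfl-miR-2072-5p and bfl-miR-2076-3p, of 9 numbers. The densities given first are not scaled between arrays, and all 10 of these members were denser in gill than in hepatic caecum, as were all but 11.1% of the 117 probes detected in both. The order of the organs in density is therefore not an order after scaling. The probe bfl-miR-2070-5p had the highest density of all 1686 probes on the intestine array, with spots of 57733 and 53448. Its spots had 9198 and 3565 in hepatic caecum and 34089 and 33250 in gill. Intestine was the brightest organ for this miRNA in density and after scaling, and the hepatic caecum spots disagreed with each other.

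The probe bfl-miR-2072-5p had spots of 7293 and 5610 in hepatic caecum, 16516 and 14711 in intestine and 12696 and 11771 in gill. In density intestine spots lay above all gill spots and hepatic caecum spots below them, whereas after scaling hepatic caecum stood above gill, as given below. The brightest member in hepatic caecum and in gill was bbe-miR-2076-5p, with spots of 11398 and 13803 in hepatic caecum, 15297 and 13002 in intestine and 41655 and 31541 in gill. Its density was highest in gill and overlapped between the gut organs. After scaling it was lowest in gill, with log2 differences of 0.81 ± 0.34 for hepatic caecum minus gill and 0.49 ± 0.33 for intestine minus gill, which were 0.11 and 0.04 relative to the median probe. Brightness also depends on the probe, so densities of different probes are not set against each other as amounts.

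Differences between organs were computed after normexp background correction and quantile normalization of the 3 arrays, on the log2 scale, among probes detected in both organs of a pair. A difference was counted from 2-fold, and its error is that of the 2 spots on both arrays, which covers neither animals nor arrays. The error was taken from log2 densities before background correction and scaling, whereas the difference was taken after them. The error is therefore not on the scale of the difference and can be too small for dim probes. The choice of scaling mattered. The median over all probes detected in both organs was 0.70 for hepatic caecum minus gill, 0.45 for intestine minus gill and 0.32 for hepatic caecum minus intestine, and without normalization between arrays it was -1.77, -1.62 and -0.06. Each difference is therefore also given relative to the median probe of its pair, with its range over the main and the 8 other settings. No normalization and the centrings shift all probes of an array alike, so their relative values are equal by construction. The range therefore cannot show which scaling between arrays is right.

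Hepatic caecum was compared with gill first. Both arrays detected 10 members, and 4 of these differed by 2-fold or more in favour of hepatic caecum and 1 in favour of gill. All 5 exceeded 2 times their spot error, which was taken before scaling. Of all 117 probes detected in both, 41.0% were higher and 9.4% lower. The median of the members was 0.84 and that of all probes 0.70. Under centring on 5S rRNA or spike-ins, 0 of the 10 were higher and all 10 lower.

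The 4 higher members were bfl-miR-2072-5p at 1.91 ± 0.28, bfl-miR-2076-3p at 1.74 ± 0.10, bfl-miR-2065 at 1.54 ± 0.05 and bfl-miR-2061 at 1.18 ± 0.27 in log2 difference. Their densities were all lower in hepatic caecum than in gill, and the higher call comes from the scaling. Relative to the median probe they stood at 1.22, 1.04, 0.84 and 0.48, and none of these relative values fell below 0 in any setting (lowest 0.58, 0.53, 0.40 and 0.12). No normalization and the centrings count as 1 setting here, and this does not bear on the sign of the unadjusted differences. The densities of bfl-miR-2065 were 5596 and 5875 in hepatic caecum and 13533 and 13778 in gill, with 3258 and 3217 in intestine. The spots of the organs did not overlap, with the highest density in gill and the lowest in intestine.

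The 1 lower member was bfl-miR-2062-5p. Its spots had 699 and 583 in hepatic caecum, 2752 and 2781 in intestine and 10556 and 10815 in gill. The organs did not overlap, with hepatic caecum lowest. The log2 difference of hepatic caecum minus gill was -1.23 ± 0.19, or -1.93 relative to the median probe with a range from -2.55 to -1.66. For hepatic caecum minus intestine it was -2.04 ± 0.19, or -2.36 relative to the median probe with a range from -2.89 to -2.20. The log2 difference of hepatic caecum minus gill was -0.91 from first spots alone and -1.83 from second spots alone. After scaling the spots thus lay further apart than the error of 0.19, and from first spots the difference was under 2-fold. The hepatic caecum density of 641 ± 81.9 (SD of 2 spots) was just above the threshold of 618, and its second spot lay below it.

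Intestine was compared with gill next, on the same gill array. Both arrays detected 16 members, and 6 of these differed by 2-fold or more in favour of intestine and 3 in favour of gill, against 39.6% and 21.8% of all 197 probes detected in both. The median of the members was 0.50 and that of all probes 0.45. Of the 9 calls 8 exceeded 2 times their spot error, taken before scaling. Without normalization between arrays 0 were higher and 11 lower, and with 5S rRNA 2 and 9. In the authors' deposited table, whose scaling is not stated, 4 of the 16 were at least 2-fold higher and 3 lower. Relative to the median probe, 4 of the 16 were at least 2-fold higher and 4 lower in the main scaling.

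The members higher in intestine included bfl-miR-2072-5p, at 2.64 ± 0.14, or 2.19 relative to the median probe with a range from 1.67 to 2.19. Another was bfl-miR-2070-5p at 2.09 ± 0.08, or 1.64 relative to the median probe with a range from 1.48 to 2.34. Which of these had the larger difference depended on the scaling, and without normalization between arrays bfl-miR-2070-5p had 0.72 and bfl-miR-2072-5p 0.35. These probes and bfl-miR-2058-3p were the 3 of the 16 members whose density itself was higher in intestine, beside 20.8% of all 197 probes. In the authors' deposited table bfl-miR-2072-5p had 22370 in intestine and 5173 in gill, and bfl-miR-2070-5p had 53136 in intestine and 17659 in gill. The probe bfl-miR-2058-3p was dim, with spots of 253 and 249 in intestine and 220 and 188 in gill, and a log2 difference of 1.63 ± 0.16.

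The remaining higher members were bfl-miR-2076-3p at 1.96 ± 0.06, bfl-miR-2061 at 1.33 ± 0.38 and bfl-miR-2068-5p at 1.33 ± 0.07. Relative to the median probe they stood at 1.51, 0.87 and 0.87, with lowest values of 0.77, 0.20 and 0.74 over the settings. Their densities were lower in intestine than in gill, and their log2 differences turned negative without normalization between arrays. The spots of bfl-miR-2076-3p had 2824 and 3052 in hepatic caecum, 3797 and 3725 in intestine and 6594 and 6952 in gill. Those of bfl-miR-2061 had 4047 and 3908 in hepatic caecum, 5193 and 4004 in intestine and 13194 and 10149 in gill. For both miRNAs the density was highest in gill and the gut organs lay near each other.

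The 3 members lower in intestine were bbe-miR-2063-3p, bfl-miR-2056 and bbe-miR-2059-5p. The probe bbe-miR-2063-3p had spots of 185 and 285 in intestine and 4322 and 4025 in gill, a log2 difference of -1.71 ± 0.45. The probe bfl-miR-2056 had 351 and 262 in intestine and 6970 and 5749 in gill, a log2 difference of -1.56 ± 0.36. For bbe-miR-2059-5p the spots were 254 and 430 in intestine and 3807 and 3523 in gill, and its difference of -1.0 ± 0.54 did not exceed 2 times its error. Relative to the median probe these stood at -2.16, -2.02 and -1.46, and each was below -1 in every setting. On the hepatic caecum array the same probes were at 218, 303 and 441, below its threshold of 618. All of them lay above the threshold of 201 set from the blank median.

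Hepatic caecum and intestine shared the same 10 members. A difference of 2-fold or more favoured hepatic caecum in 1 of them and intestine in 2, against 24.1% and 12.1% of all 116 probes detected in both. The median of the members was 0.01 and that of all probes 0.32. The higher one was bfl-miR-2065, at 1.02 ± 0.05. With cyclic loess, without normalization between arrays, or centred on shared probes, spike-ins or 5S rRNA, this count was 0. Relative to the median probe the difference of bfl-miR-2065 ranged from 0.57 to 0.88, under 2-fold in every setting. No normalization and the centrings give the same relative value by construction. The lower ones were bfl-miR-2062-5p, given above, and bfl-miR-2070-5p at -2.26 ± 0.97, or -2.58 relative to the median probe with a range from -3.24 to -1.94. With 5S rRNA all 10 were at least 2-fold lower.

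**Figure D2:**
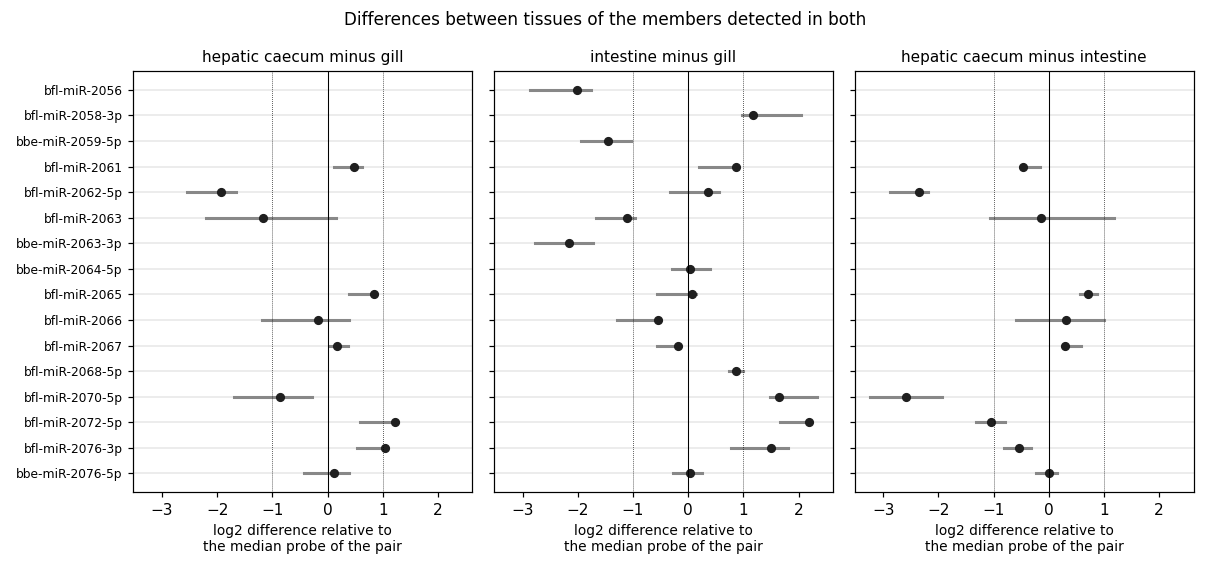
Log2 difference of each member detected in both organs of a pair, relative to the median probe of that pair; points are the main scaling, bars span the main and the 8 other settings, and dotted lines mark 1 and -1. The probes bfl-miR-2062-5p and bfl-miR-2070-5p lay at -2.36 and -2.58 for hepatic caecum minus intestine, and bfl-miR-2072-5p at 2.19 for intestine minus gill.

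In intestine 6 members passed the threshold that did not in hepatic caecum, beside 5.04% of all probes, with 0 bounds of 2-fold beside 16.5% of these. The reverse held for 0 members and 0.297% of all probes. For members detected in 1 organ of a pair only a lower bound could be given. Detection in gill and not in intestine held for 20 members and for 15.3% of all probes, and detection in gill and not in hepatic caecum for 26 members and for 20.0% of all probes. The bound reached 2-fold for 2 members in each case, beside 8.91% and 8.58% of all such probes. These 2 were bbe-miR-2071-5p and bfl-miR-2071-3p, which target the same sequence. The probe bbe-miR-2071-5p had spots of 238 and 217 in hepatic caecum, 104 and 114 in intestine and 12597 and 12192 in gill. The probe bfl-miR-2071-3p had 217 and 271 in hepatic caecum, 112 and 107 in intestine and 11932 and 12400 in gill. Gill spots lay far above those of both gut organs, and intestine spots were at the level of the blank spots.

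After quantile normalization the miR-2071 probes were at least 11.6-fold and 11.3-fold lower in intestine than in gill, and at least 4.31-fold and 4.22-fold lower in hepatic caecum than in gill. The bounds varied with the processing. For bbe-miR-2071-5p they ran from 9.29 to 68.6 for intestine and from 3.39 to 74.4 for hepatic caecum over the main and the 8 other settings. The opposite arm of the same hairpin followed. The probe bbe-miR-2071-3p had 168 ± 10.3 in hepatic caecum, 105 ± 0.45 in intestine and 924 ± 8.8 in gill, and bfl-miR-2071-5p had 162 ± 10.6, 103 ± 3.4 and 1024 ± 39.0 in the same organs (SD of 2 spots). Their bounds stayed under 2-fold. All 4 probes of miR-2071 were detected in gill alone by the threshold of 618 for hepatic caecum. With a threshold of 201 there, set from the blank median, bbe-miR-2071-5p and bfl-miR-2071-3p were detected in hepatic caecum too, and the gill-only call ended for both.

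Arms were compared within 12 hairpins that had probes for both, 5 of B. belcheri and 7 of B. floridae. The numbers miR-2058, miR-2059 and miR-2071 entered once for each species, so the 12 are not separate miRNAs. For miR-2059 and miR-2071 the names 5p and 3p are swapped between the species, so the counts are of probe names. In gill both arms were detected in 6 hairpins, the probe named 5p alone in 5 and neither in 1. In intestine 5p alone was detected in 6, 3p alone in 1 and both in 0, and in hepatic caecum 5p alone was detected in 3 and both in 0. For miR-2070 and miR-2072 of B. floridae the 5p probe was detected in every organ and the 3p probe in none. The probe bfl-miR-2070-3p had 154 in hepatic caecum, 102 in intestine and 117 in gill, all below threshold. The probe bfl-miR-2072-3p had 161, 115 and 114 in the same organs, also below every threshold.

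For miR-2062 the arm named 3p was at 140 in gill, just above the threshold, and below it elsewhere, and for miR-2068 only bfl-miR-2068-5p was detected, with spots of 361 and 379 in intestine and 556 and 584 in gill. For miR-2064, bbe-miR-2064-5p had 354 and 432 in hepatic caecum, 442 and 417 in intestine and 1672 and 1469 in gill, while bbe-miR-2064-3p was not detected. For miR-2057 of B. belcheri the arm named 3p was the brighter probe in gill, with spots of 1260 and 1032, and the 5p probe had 188 and 217. Differences in brightness between arms include those between probes, so a bright arm beside a dim one is a description of the array.

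**Figure D3:**
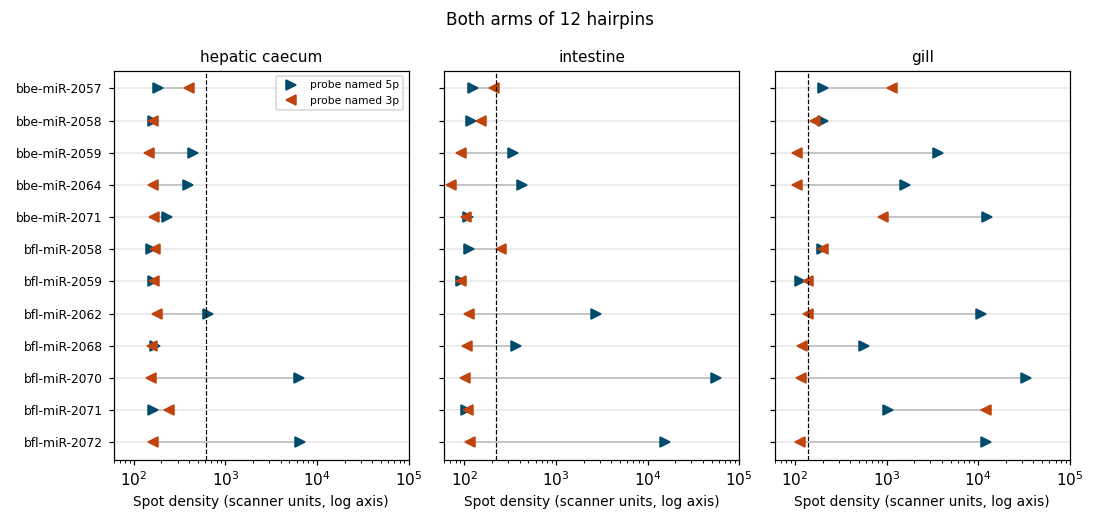
Density (mean of 2 spots, scanner units, log axis) of the probes named 5p (triangles to the right) and 3p (triangles to the left) of 12 hairpins on each array; dashed lines are the detection thresholds. In gill the 5p probe alone passed in 5 hairpins and both in 6, and for bfl-miR-2071 the probe named 3p lay above the probe named 5p. The numbers miR-2058, miR-2059 and miR-2071 are shown once for each species.

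Probes of both species were then compared. A pair was formed where a B. belcheri and a B. floridae probe of 1 number shared at least 17 bases in an ungapped placement, which gave 12 pairs of 12 B. belcheri and 11 B. floridae probes. The names of the arms did not always correspond. In 4 of the 12 pairs the product called 5p in one species was called 3p in the other, for both products of miR-2059 and both of miR-2071. Matching by name alone would thus have joined opposite arms for these numbers.

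Calls were the same on all 3 arrays in 9 of the 12 pairs. In hepatic caecum all 12 pairs had the same call, both probes below threshold, in intestine 10 had the same call and in gill 10, of which 7 had both detected. Of the 5 pairs whose shared bases were identical, 3 had gill densities that differed by less than the larger of their spot SDs. In gill bbe-miR-2071-5p had 12395 ± 286 and bfl-miR-2071-3p 12166 ± 331, bbe-miR-2058-5p had 202 ± 1.0 and bfl-miR-2058-5p 198 ± 8.9, and bbe-miR-2057-5p had 202 ± 20.1 and bfl-miR-2057 210 ± 1.4. The other two were bbe-miR-2071-3p and bfl-miR-2071-5p, given above, and the miR-2072-3p pair, with 138 ± 0.9 and 114 ± 2.2, both below threshold. These probes differ at most in length and can bind the same RNA, so they are repeat readings and not separate miRNAs.

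The widest gap was between bbe-miR-2059-5p and bfl-miR-2059-3p, shown among the sequences of the first set, which differ by the single substitution G10U (position from the 5′ end, B. belcheri base first). The B. belcheri probe had 441 ± 149 in hepatic caecum, 342 ± 124.2 in intestine and 3665 ± 201 in gill. The B. floridae probe had 166, 92.4 and 139 ± 16.2 in the same organs and was called in none. The other pairs with unequal calls were dim. The pair of miR-2058-3p, with substitution C20U, had 152 ± 9.8 and 251 ± 3.0 in intestine, B. belcheri probe first, and the pair of miR-2070-3p, with A9U, had 157 ± 7.0 and 117 ± 4.0 in gill. In hepatic caecum 1 of 21 B. belcheri and 9 of 26 B. floridae members were detected, and in gill 17 of 21 and 19 of 26. The gap in hepatic caecum depended on the threshold. With the threshold of 201 set from the blank median, 7 of 21 and 12 of 26 were detected there. None of the 10 members detected in hepatic caecum belonged to a pair, so this gap is one between different products.

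**Figure D4:**
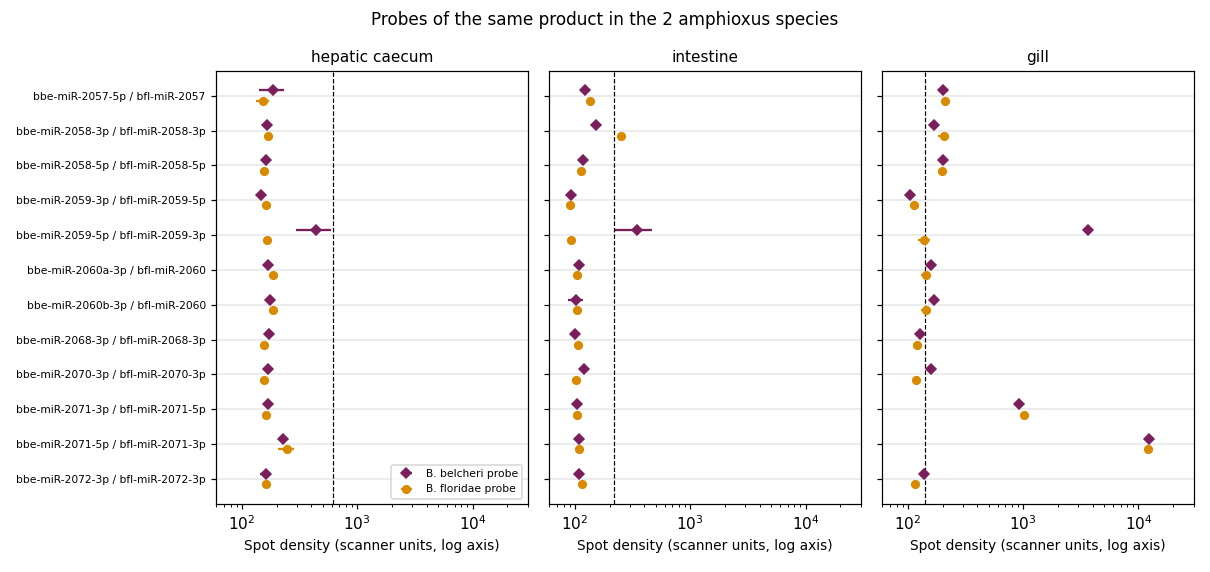
Density (mean of 2 spots ± SD, scanner units, log axis) of the B. belcheri probe (diamonds) and the B. floridae probe (circles) in the 12 pairs, on each array; dashed lines are the detection thresholds. The miR-2059 pair that differs by G10U had 3665 and 139 in gill, whereas both probes of each miR-2071 product lay together.

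Opposite arms were also present across species for numbers with a single product per species. The probes bbe-miR-2063-3p and bfl-miR-2063 have a complementary run of 9 bases, as do bbe-miR-2076-5p and bfl-miR-2076-3p. The spots of bfl-miR-2063 were 1113 and 277 in hepatic caecum, 538 and 273 in intestine and 5766 and 2206 in gill. Both miR-2063 products were brighter in gill than in intestine, without overlap of spots, but the log2 difference of bfl-miR-2063, at -0.66 ± 1.20, did not exceed its error. Both miR-2076 products were detected in all organs.

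The seeds were compared with the rest of the array. The 47 members had 35 seeds, and 12 members shared theirs with a probe outside the group. Of the 8 members with the seeds of miR-92, miR-15 and miR-153, 5 were detected on all arrays, and of the 39 other members 5 were. This split was made after the values had been seen, and it is a description. Outside the group 44 probes had the miR-92 seed, 5 of them of amphioxus. Of these 44 probes, 9 were detected in hepatic caecum, 23 in intestine and 27 in gill. Those detected in both intestine and gill had a median log2 difference of -2.33, while the members with that seed had -1.0 (bbe-miR-2059-5p), -0.66 (bfl-miR-2063) and 0.49 (bbe-miR-2076-5p).

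For the miR-15 seed, 0 of 18 outside probes were detected in hepatic caecum, 0 in intestine and 2 in gill. Of these 18 probes 0 were of amphioxus, so setting them beside the members compares species as well as miRNAs. Of the 3 members with this seed, bfl-miR-2066 and bfl-miR-2067 were detected on every array. The spots of bfl-miR-2067 had 8339 and 8826 in hepatic caecum, 6264 and 6116 in intestine and 22838 and 22484 in gill, and those of bfl-miR-2066 had 683 and 2265 in hepatic caecum, 947 and 982 in intestine and 7296 and 6918 in gill. The density was highest in gill for both. After scaling, the log2 difference of bfl-miR-2067 was 0.88 ± 0.06 for hepatic caecum minus gill and 0.26 ± 0.03 for intestine minus gill, or 0.18 and -0.19 relative to the median probe. That of bfl-miR-2066 was 0.53 ± 1.22 for hepatic caecum minus gill, within its spot error, and -0.10 ± 0.07 for intestine minus gill. For the miR-153 seed, 0 of 11 outside probes, 2 of them of amphioxus, were detected on any array, whereas bfl-miR-2061 was detected on all. Over their whole length the members matched the most similar probe outside the group at 12 to 17 bases, with a median of 14. The 17-base matches were those of bbe-miR-2064-5p, bfl-miR-2066 and bfl-miR-2067 with bfl-miR-2013, which had 630 in hepatic caecum, 632 in intestine and 2190 in gill. Binding of 1 RNA to several of these probes was not tested.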

How the data were processed

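Small RNA below 300 nt from pools of 5 adults was tailed, tagged and stained with Cy3, per the labels' protocols. Median density, an intensity on a linear scale, was read for 3968 spots per array, per the file headers. Processed intensity per probe came from the authors' deposited table. Its background correction and scaling are not given in the sources used here, and the hepatic caecum column was not used.

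The hepatic caecum grid was turned by 180 degrees, a choice made after the data had been seen. Densities were corrected with normexp (offset 50), converted to log2, averaged over 2 spots and quantile-normalized over 1686 probes with limma 3.58.1 in R 4.3.3, after a check on simulated data. Further steps used pandas 2.3.3, numpy 2.4.6 and matplotlib 3.10.9 under Python 3.11.15. For a probe detected in 1 organ, its level was set against the higher of its own level and the lowest detected level in the other. Differences are hepatic caecum minus gill, intestine minus gill and hepatic caecum minus intestine. Members named with values were those detected on at least 2 arrays, those with unequal calls between species, those of hairpins with both arms and the 3 brightest per array. The values of bfl-miR-2057, bbe-miR-2066-3p, bbe-miR-2067-5p and bbe-miR-2072-3p fall outside this rule and were chosen after they were seen. The members and lists were chosen with earlier results of these data known. Alternatives were scalings, thresholds, single spots and no background correction. Genome positions were not used here. The number of arrays limits the precision, and 0 columns of sample values were left unmapped.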

Additional observations from a re-analysis of the deposited data

How the results depend on the processing

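Counts of detected members in intestine and gill stayed within 1.5 times the main count under each threshold and spot setting tried. In hepatic caecum the main count of 10 became 19 under the median rule (median of the blanks plus 3 scaled MADs) and 0 under the deposited names. The count of 9 species pairs with equal calls was also 9 under the median rule.

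Counts of 2-fold differences depended on the scaling between arrays. Hepatic caecum against gill had 4 members higher and 1 lower, and this became 0 and 9 without normalization between arrays, 0 and 2 with cyclic loess, 0 and 10 with 5S rRNA, and 0 and 10 with spike-ins. The lower count was 0 from first spots alone, 2 from second spots alone and 5 under the median rule. Intestine against gill had 6 higher and 3 lower, and this became 0 and 11 without normalization, 2 and 9 with 5S rRNA and 0 and 11 with spike-ins. Leaving out the hepatic caecum array, an alternative chosen after seeing the data, gave 6 and 3. Hepatic caecum against intestine had 1 higher and 2 lower. The higher count was 0 without normalization, with cyclic loess, 5S rRNA, spike-ins and centring on shared probes, and the lower count was 10 with 5S rRNA.

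Of the 17 log2 differences of at least 2-fold, 8 changed sign under some scaling, and they are given here for no normalization, 5S rRNA and spike-ins in that order. For hepatic caecum minus gill they were -1.57, -3.0 and -1.80 for bfl-miR-2061, -1.27, -2.70 and -1.50 for bfl-miR-2065, -0.95, -2.38 and -1.18 for bfl-miR-2072-5p, and -1.24, -2.67 and -1.47 for bfl-miR-2076-3p. For intestine minus gill they were -1.35, -0.70 and -1.10 for bfl-miR-2061 and -0.85, -0.21 and -0.60 for bfl-miR-2076-3p. For bfl-miR-2068-5p they were -0.63 without normalization and -0.38 with spike-ins. For hepatic caecum minus intestine, bfl-miR-2065 had -1.26 with 5S rRNA. Of the 19 differences under 2-fold, 15 changed sign under at least 1 alternative, 9 of them without normalization, 12 with 5S rRNA, 12 with spike-ins, 4 with cyclic loess, 2 with centring on shared probes, 4 from first spots and 2 from second spots. The centrings and no normalization differ from each other by a shift common to all probes of an array. Quantile normalization and cyclic loess also change probes by amounts that depend on brightness. The 5S rRNA centring rested on 3 probes. The cause of the disagreement between scalings was not tested. No paired analysis was possible because each organ had 1 sample.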

Other observations

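Several members resembled each other across numbers within a species. The 5p products of miR-2057 and miR-2058 shared the seed GAGAAGU in both species, with 18 of 22 bases matching in B. belcheri and 19 of 23 in B. floridae, and no probe outside the group had this seed. All 4 probes were dim, detected in gill alone at 198 to 210. The probes bfl-miR-2066 and bfl-miR-2067 matched at 19 of 21 bases. The B. belcheri probes of these numbers, bbe-miR-2066-3p and bbe-miR-2067-5p, matched at 19 of 22 bases, although one is named 3p and the other 5p, and were detected in gill alone at 202 and 206. The products bfl-miR-2059-3p and bfl-miR-2063 shared 17 of 21 bases, and of these only bfl-miR-2063 was detected.

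Repeat spots more than 2-fold apart occurred in 4 detected readings, namely bfl-miR-2063, bfl-miR-2066 and bfl-miR-2070-5p in hepatic caecum and bfl-miR-2063 in gill. A threshold based on blank medians gave 19 members in hepatic caecum, 20 in intestine and 38 in gill, beside 320, 321 and 476 of all 1686 probes.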
